A study of Mus musculus with 9 samples.

Results

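Transcripts of insulin-like growth factor 1 (IGF1), its receptors and its binding proteins were followed in mouse white adipose tissue. The genes were Igf1, Igf1r, Igf2r, Igfbp2, Igfbp3, Igfbp4, Igfbp5, Igfbp6 and Igfbp7, taken by gene symbol from the array annotation. All 9 were found, each as a single transcript cluster, among 19572 clusters that carry 1 gene symbol. Male mice were 6 weeks old when obtained and were acclimatized for 1 week. The arrays, 3 per group, covered C57BL/6JHamSlc-ob/ob mice gavaged with 100 mg/kg VE, an extract of Vigna umbellata (rice bean), C57BL/6JHamSlc-ob/ob mice given vehicle, and C57BL/6JHamSlc-+/+ (wild type) mice given vehicle. Treatment ran for 42 days, on standard chow. Both ob/ob groups lack functional leptin in the whole body and are obese, so no group isolates a defect of the fat itself. The fat depot was not named in the labels, and each group is 3 mice per the design text.

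IGF1 is a growth factor made in the liver under growth hormone and also locally, in fat by stromal cells, macrophages and adipocytes. It signals through the tyrosine kinase receptor encoded by Igf1r, whereas the receptor encoded by Igf2r takes IGF2 up for breakdown and carries enzymes tagged with mannose 6-phosphate to lysosomes. Binding proteins hold IGFs in blood and matrix, prolong their life or keep them from the receptor, and release them when cut by proteases.

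Values are log2 signals, on which a difference of 1 is a 2-fold difference; signals of different genes are not comparable with each other. On every array all 9 genes read above the array's median, which lay between 6.11 and 6.26. Of the adipocyte markers, 8 of 8 exceeded the array median on all 9 arrays, and Adipoq, which encodes adiponectin, read 17.93 to 19.06. The wild type arrays stood apart. The 13 epithelial markers had medians of 4.22 to 4.54 in VE fat, 4.52 to 4.80 in ob/ob vehicle fat, and 9.54, 10.67 and 8.31 on wild type arrays 1, 2 and 3. Markers of smooth muscle and pericytes were at 8.16 to 9.27 in VE, 8.68 to 9.23 in ob/ob vehicle, and 12.03, 14.98 and 9.80 on wild type arrays 1, 2 and 3. The 9 macrophage markers went the other way, at 11.23 to 12.43 in VE, 12.14 to 13.14 in ob/ob vehicle and 7.34 to 8.29 in wild type. Of 7 measured epididymis markers, 0 exceeded the array median on ob/ob arrays and 1 did on each wild type array; that of array 2, Adam7, read 17.10 there, against 5.21 and 7.46 on wild type arrays 1 and 3 and 3.96 to 4.93 on the ob/ob arrays. In tissue RNA a smaller number of cells of a type and less RNA per cell cannot be told apart, and the part of these lists in the results below was not tested. Differences from wild type are also given against wild type array 3 alone, for the 9 genes and some of the pathway genes named below. That fit assumes the lone array to vary like the other groups. Array 3 had the lowest epithelial and smooth muscle medians of wild type, 8.31 and 9.80. Both still lay above those of all ob/ob arrays, so that fit does not remove this difference.

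**Figure D1:**
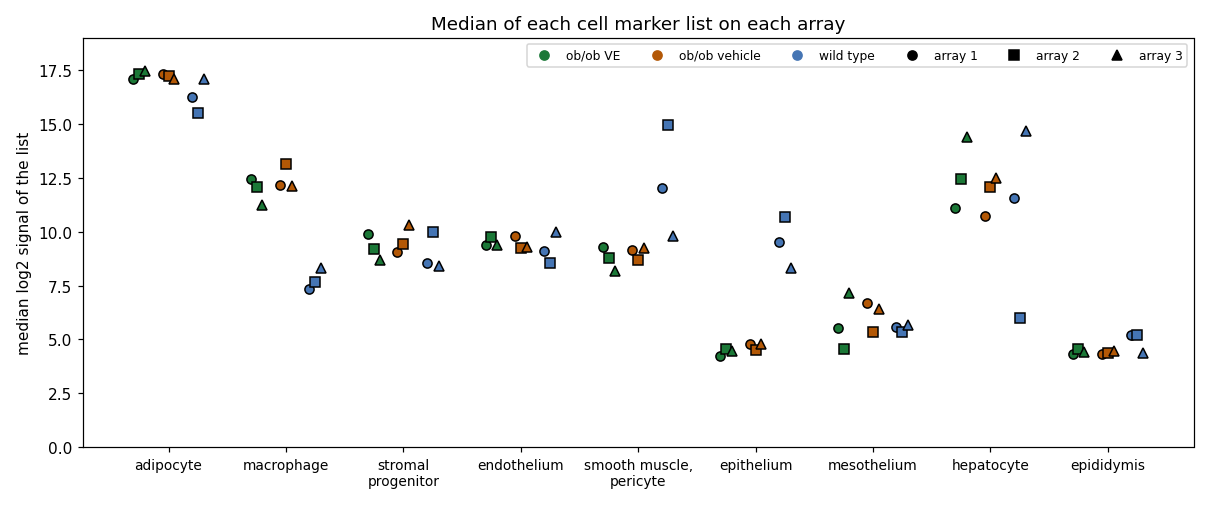
Median log2 signal of each cell marker list (y axis) on each array, by list (x axis), with ob/ob VE, ob/ob vehicle and wild type from left to right and a symbol per array number. Wild type arrays 1 and 2 carried the highest smooth muscle and epithelial medians, and the macrophage medians of the 6 ob/ob arrays lay above those of all wild type arrays.

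The receptors differed most between obese and lean fat, and in opposite directions. The genotypes were compared under vehicle. Igf1r was lower and Igf2r higher in ob/ob fat, and the other 7 genes did not pass an adjusted p of 0.05 in limma. That is 2 of 9 genes, where 14.1% of all clusters passed (9.02% higher and 5.05% lower), so the count itself says little about the family. At the submitters' threshold (unadjusted p under 0.05 and fold over 1.1) 4 of the 9 passed, where 28.4% of all clusters did, and at an adjusted p under 0.1 in limma 3 did, where 20.2% of all clusters did. The genes differed by a median of 0.29, against −0.04 over all clusters.

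Igf1r, the signalling receptor, read 7.29, 6.53 and 6.78 in ob/ob vehicle fat and 8.49, 9.55 and 8.57 in wild type fat. All 3 ob/ob values lay below all 3 wild type values. The difference was −2.003 ± 0.33 (log2, SE, n = 3 each; adjusted p = 0.00334 by limma), which is 4.01-fold lower, with a 95% interval of −2.75 to −1.26. Against wild type array 3 alone the difference was −1.70 (adjusted p = 0.0166 by limma), and against wild type arrays 1 and 2 it was −2.15.

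Igf2r, the lysosomal sorting and IGF2 clearance receptor, read 12.20, 13.99 and 13.75 in ob/ob vehicle fat and 10.15, 10.85 and 10.70 in wild type fat. The groups did not overlap, although ob/ob vehicle array 1 lay well below the other two. The difference was 2.75 ± 0.43 (log2, SE, n = 3 each; adjusted p = 0.00236 by limma), or 6.71-fold, with a 95% interval of 1.79 to 3.71. Against wild type array 3 alone it was 2.61 (adjusted p = 0.0207 by limma). Macrophage markers were also higher: 8 of 9 measured passed, where 14.1% of all clusters did, with a median difference of 4.63. The remaining marker, Mertk, differed by 0.68 ± 0.58. Macrophage medians on ob/ob vehicle arrays 1, 2 and 3 were 12.17, 13.14 and 12.14. A link between these markers and Igf2r was not tested.

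Exact permutation of 3 against 3 arrays gave p = 0.1 for both receptors. That is the smallest value it can give, so permutation cannot decide these calls. Both calls held under all 21 alternatives, among them a fit without empirical Bayes, which does not pool the spread over genes. The looser thresholds among the alternatives could not end these calls.

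The windows before the start of the receptor genes are shown because these genes moved in opposite directions. Both are the 250 bases upstream of the annotated start in RefSeq's GRCm38.p6 annotation, 5′ to 3′ on the gene's strand. Capitals mark GGGCGG, a GC box on which Sp1 can act, in the window of Igf1r (chr7:67952007-67952256, plus strand), and CACGTG, an E-box, in that of Igf2r (chr17:12769707-12769956, minus strand).
Igf1r: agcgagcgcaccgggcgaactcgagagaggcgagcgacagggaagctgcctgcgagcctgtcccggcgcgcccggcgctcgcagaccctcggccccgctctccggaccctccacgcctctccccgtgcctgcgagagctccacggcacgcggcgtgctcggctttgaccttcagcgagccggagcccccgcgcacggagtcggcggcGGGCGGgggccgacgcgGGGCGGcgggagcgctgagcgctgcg
Igf2r: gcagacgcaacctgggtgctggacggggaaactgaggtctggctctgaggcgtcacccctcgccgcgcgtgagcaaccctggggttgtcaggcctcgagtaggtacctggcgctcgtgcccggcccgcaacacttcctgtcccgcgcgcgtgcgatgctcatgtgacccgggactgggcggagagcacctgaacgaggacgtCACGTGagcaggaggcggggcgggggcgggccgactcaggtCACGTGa
Motifs were searched on both strands with overlaps counted. The Igf1r window held GGGCGG at 2 places and no CACGTG. The Igf2r window held CACGTG at 2 places and GGGCGG at 3. Of 32851 such mouse windows, 6.02% held CACGTG and 32.7% held GGGCGG; a match is a string of letters and not a measured site.

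**Figure D2:**
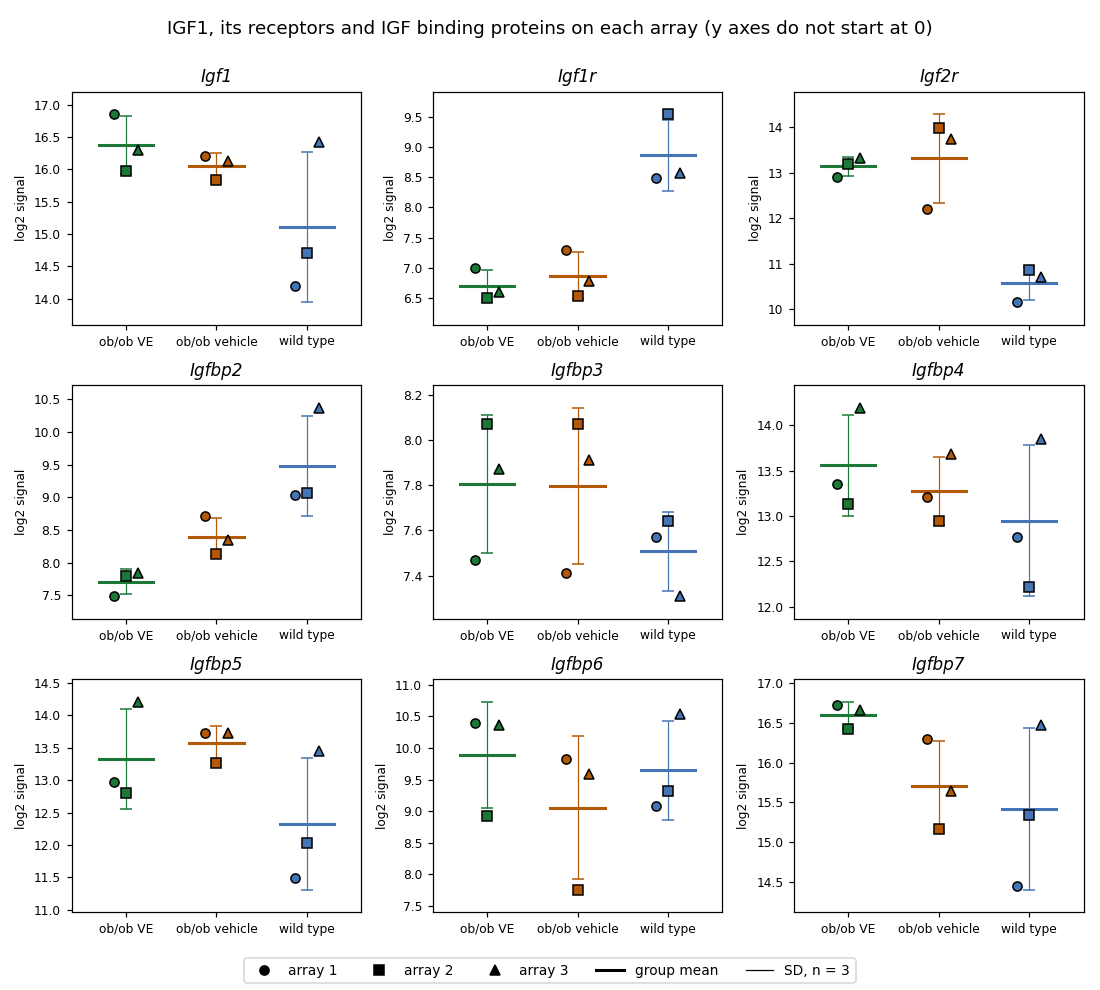
Log2 signal (y axes, each with its own range) of the 9 genes on each array, with ob/ob VE, ob/ob vehicle and wild type from left to right; bars are group means with SD (n = 3) and symbols mark the array number. Igf1r and Igf2r separate the ob/ob arrays from wild type without overlap, while for Igf1, Igfbp4, Igfbp5 and Igfbp7 wild type array 3 sits within the range of the ob/ob arrays.

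The ligand gene Igf1 read 16.21, 15.83 and 16.13 in ob/ob vehicle fat and 14.20, 14.71 and 16.42 in wild type fat. Wild type array 3 lay above all ob/ob vehicle arrays and the other wild type arrays below them. The difference was 0.95 ± 0.50 (log2, SE, n = 3 each; adjusted p = 0.249 by limma), with a 95% interval of −0.16 to 2.05 that holds both no difference and a 4-fold one. Its size depended in wild type fat used. Against wild type arrays 1 and 2 it was 1.60 (adjusted p = 0.00595 by limma), and against array 3 alone it was −0.36 (adjusted p = 0.635).

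Of the binding protein genes, none passed in this comparison. Igfbp2, made by preadipocytes and known to be induced by leptin in liver, came nearest. It read 8.71, 8.13 and 8.34 in ob/ob vehicle fat and 9.03, 9.06 and 10.37 in wild type fat, without overlap. Groups did not overlap at 3 of the 9 genes (Igf1r, Igf2r and Igfbp2), where 28.9% of all clusters did not (15.7% higher and 13.1% lower in ob/ob vehicle). The Igfbp2 difference was −1.09 ± 0.36 (log2, SE, n = 3 each; adjusted p = 0.0728 by limma). It was −1.98 against wild type array 3 alone (adjusted p = 0.00447 by limma), −1.32 after quantile normalization (adjusted p = 0.0339) and −0.65 against wild type arrays 1 and 2 (adjusted p = 0.123). The lower wild type values were those of the arrays with the highest epithelial medians.

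Igfbp5, a binding protein held in the extracellular matrix, read 13.72, 13.26 and 13.73 in ob/ob vehicle fat and 11.49, 12.03 and 13.45 in wild type fat. Wild type array 3 lay among the ob/ob values and the others well below. The difference was 1.25 ± 0.51 (log2, SE, n = 3 each; adjusted p = 0.139 by limma). It passed against wild type arrays 1 and 2 (1.81, adjusted p = 0.0133 by limma) and was 0.12 against array 3 alone. Igfbp2 and Igfbp5 are neighbouring genes on chromosome 1 in GRCm38.p6, and their differences had opposite signs.

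Igfbp3 encodes the main IGF carrier of blood. It read 7.41, 8.07 and 7.91 in ob/ob vehicle fat and 7.57, 7.64 and 7.31 in wild type fat. The ranges overlapped, with ob/ob vehicle arrays 2 and 3 above all wild type arrays. Igfbp3 had the narrowest interval of the 9 genes, from −0.29 to 0.87 around 0.29, which leaves out a 2-fold change in either direction. Against wild type array 3 alone the difference was 0.49, a value whose fit is wider (SE 0.37). Igfbp4, an inhibitor of IGF action that the protease PAPP-A cuts, read 13.21, 12.94 and 13.68 in ob/ob vehicle fat and 12.77, 12.22 and 13.85 in wild type fat. Its difference of 0.33 ± 0.43 had an adjusted p of 0.678 by limma, and its sign turned against wild type array 3 alone (−0.57).

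Igfbp6, which prefers IGF2, read 9.82, 7.76 and 9.59 in ob/ob vehicle fat and 9.08, 9.32 and 10.54 in wild type fat. Its spread was the widest in the ob/ob vehicle group (SD 1.13), set by array 2, and the difference was −0.59 ± 0.62 (adjusted p = 0.593 by limma) and −1.48 against wild type array 3 alone (adjusted p = 0.297). Igfbp7, a vessel- and stroma-derived relative that binds IGFs weakly, read 16.30, 15.16 and 15.64 in ob/ob vehicle fat and 14.44, 15.34 and 16.48 in wild type fat. The wild type values spanned those of ob/ob vehicle, and the difference was 0.28 ± 0.47 (adjusted p = 0.754 by limma) and −0.78 against wild type array 3 alone.

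Within wild type fat, array 3 had the highest value of 6 of the 9 genes (Igf1, Igfbp2, Igfbp4, Igfbp5, Igfbp6 and Igfbp7) and array 1 the lowest of 7. Igf1r, Igf2r and Igfbp3 were highest on array 2, and Igfbp3 was lowest on array 3. The ranges over wild type arrays were 2.22 for Igf1, 2.04 for Igfbp7 and 1.96 for Igfbp5, against 0.38, 1.14 and 0.47 in ob/ob vehicle. On the same arrays the adipocyte list read 16.27, 15.53 and 17.11. Within ob/ob vehicle, array 2 had the lowest value of 7 genes and the highest of the other two, Igf2r and Igfbp3. That array also had the highest macrophage median, 13.14. Within VE, array 2 had the lowest value of 6 genes. These are orders within groups of 3 and were not tested.

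**Figure D3:**
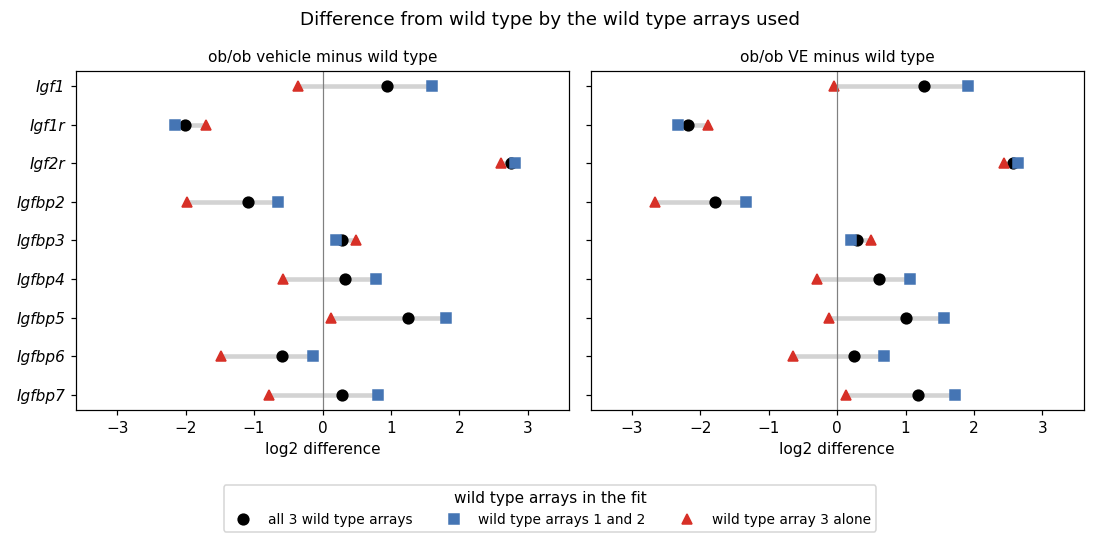
Log2 difference from wild type (x axes) of the 9 genes (y axis) for ob/ob vehicle on the left and ob/ob VE on the right, computed with all wild type arrays (circles), with wild type arrays 1 and 2 (squares) or with wild type array 3 alone (triangles). Igf1r, Igf2r, Igfbp2 and Igfbp3 stay on one side of 0 in both panels, and Igf1 and Igfbp4 cross it in both.

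VE and vehicle were compared within ob/ob mice, to ask what the extract changed. Of the 9 genes, 0 passed in limma, where 0.0255% of all clusters did, and 0 had an unadjusted p under 0.05, where 4.56% of all clusters did. Differences ran from −0.69 (Igfbp2) to 0.91 (Igfbp7) with a median of 0.01. The groups did not overlap at 2 genes, where 12.6% of all clusters did not (5.77% higher and 6.79% lower in VE).

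Those 2 genes were Igfbp7 and Igfbp2. Igfbp7 read 16.73, 16.42 and 16.67 in VE fat and 16.30, 15.16 and 15.64 in ob/ob vehicle fat. The difference was 0.91 ± 0.47 (log2, SE, n = 3 each; adjusted p = 1.00 by limma), with a 95% interval of −0.14 to 1.96. Igfbp2 read 7.49, 7.79 and 7.84 in VE fat and 8.71, 8.13 and 8.34 in ob/ob vehicle fat. The difference was −0.69 ± 0.36 (adjusted p = 1.00 by limma), with an interval of −1.49 to 0.11. In both genes the VE values were closer together than the vehicle values.

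The receptors stood close in both ob/ob groups. Igf1r read 6.99, 6.49 and 6.59 in VE fat, and its difference from ob/ob vehicle was −0.18 ± 0.33, with a 95% interval of −0.92 to 0.57. Igf2r read 12.90, 13.19 and 13.32 in VE fat, within the range of ob/ob vehicle, and differed by −0.18 ± 0.43 (−1.14 to 0.78). Both upper and lower bounds are smaller in size than the genotype differences of these receptors, −2.003 and 2.75.

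Igf1 read 16.85, 15.97 and 16.30 in VE fat and differed from ob/ob vehicle by 0.32 ± 0.50 (−0.79 to 1.42). Igfbp6 read 10.39, 8.92 and 10.36 in VE fat and differed by 0.83 ± 0.62 (−0.54 to 2.21), the widest interval of the family. Igfbp3 read 7.47, 8.07 and 7.87 in VE fat and differed by 0.01 ± 0.26 (−0.57 to 0.59). Igfbp4 read 13.35, 13.13 and 14.19 and Igfbp5 read 12.97, 12.80 and 14.21 in VE fat. They differed from ob/ob vehicle by 0.28 ± 0.43 and −0.24 ± 0.51. Each of these intervals holds 0.

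**Figure D4:**
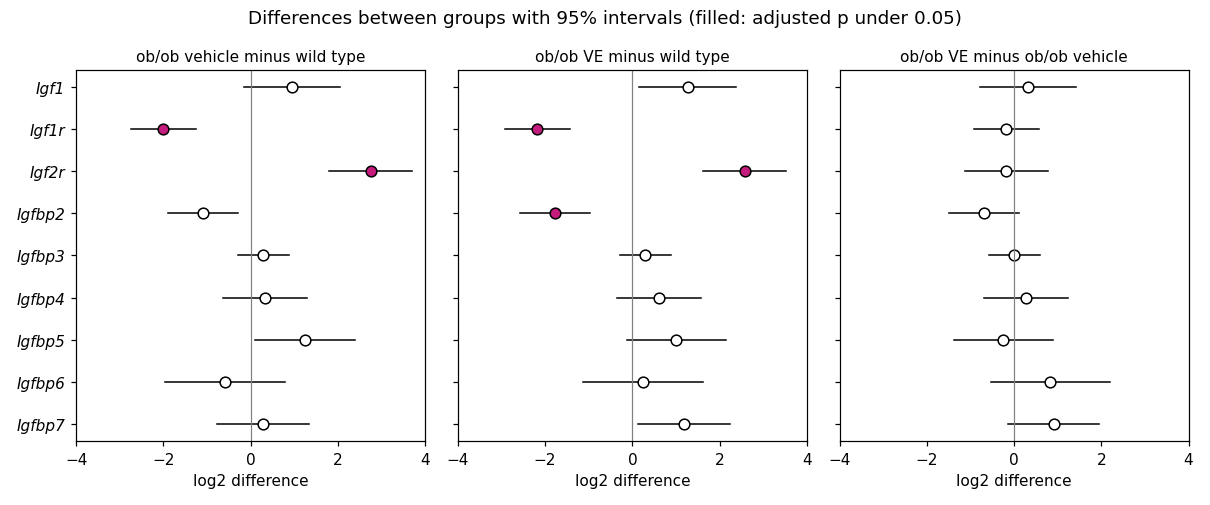
Log2 differences (x axes) of the 9 genes (y axis) with 95% intervals from limma in the 3 comparisons; filled points passed an adjusted p of 0.05. Igf1r and Igf2r pass in both comparisons with wild type, Igfbp2 in that of VE with wild type, and no gene passes between VE and vehicle.

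VE fat was compared with wild type fat as well. That comparison shares its wild type arrays with the comparison of genotypes, so the values of one are not independent of the other's. Of the 9 genes, 1 was higher (Igf2r) and 2 were lower (Igf1r and Igfbp2), where 20.0% of all clusters passed (12.4% higher and 7.58% lower). At the submitters' threshold 5 of the 9 passed, where 33.9% of all clusters did, and at an adjusted p under 0.1 in limma 3 did, where 28.2% of all clusters did. Arrays did not overlap at 3 genes (Igf1r, Igf2r and Igfbp2), against 37.2% of all clusters (19.5% higher and 17.7% lower).

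Igf1r differed by −2.18 ± 0.33 (log2, SE, n = 3 each; adjusted p = 0.00174 by limma), or 4.53-fold lower in VE, and Igf2r by 2.57 ± 0.43 (adjusted p = 0.00286), or 5.94-fold higher. Against wild type array 3 alone they stood at −1.88 and 2.44.

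Igfbp2 read 7.49, 7.79 and 7.84 in VE fat and 9.03, 9.06 and 10.37 in wild type fat. The difference was −1.78 ± 0.36 (log2, SE, n = 3 each; adjusted p = 0.00751 by limma), or 3.43-fold lower in VE. It was −1.34 against wild type arrays 1 and 2 and −2.66 against array 3 alone, past the threshold both times. Its group means ran from 7.71 ± 0.19 in VE over 8.39 ± 0.29 in ob/ob vehicle to 9.49 ± 0.77 in wild type (SD, n = 3). The outer groups of this order differed and neither neighbouring pair passed, so VE passing against wild type where vehicle did not is no test of VE against vehicle.

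The window before the start of Igfbp2 in GRCm38.p6 (chr1:72824230-72824479, plus strand) is shown because this is the binding protein gene that passed. Capitals mark GGGCGG, at 3 places.
Igfbp2: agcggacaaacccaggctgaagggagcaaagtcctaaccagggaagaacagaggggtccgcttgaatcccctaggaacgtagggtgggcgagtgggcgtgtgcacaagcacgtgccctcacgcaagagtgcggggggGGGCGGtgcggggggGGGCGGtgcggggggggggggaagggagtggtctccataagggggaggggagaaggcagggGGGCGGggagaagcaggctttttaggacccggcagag
It held CACGTG at 1 further place. A second annotated start of Igfbp2 had neither motif in its window.

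Igf1 was 1.26 ± 0.50 higher in VE than in wild type (adjusted p = 0.102 by limma) and Igfbp7 1.19 ± 0.47 higher (adjusted p = 0.105). Neither passed. Both passed against wild type arrays 1 and 2 (1.92 and 1.72, adjusted p = 0.00186 and 0.00897 by limma), and against array 3 alone they were −0.05 and 0.13. Igfbp5 differed by 1.00 ± 0.51 (adjusted p = 0.197 by limma), 1.57 against wild type arrays 1 and 2 (adjusted p = 0.0217) and −0.12 against array 3 alone. Igfbp4 (0.61 ± 0.43), Igfbp3 (0.30 ± 0.26) and Igfbp6 (0.24 ± 0.62) did not pass, and against array 3 alone they stood at −0.29, 0.49 and −0.65.

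Over the 3 groups, the order of the mean levels was VE, ob/ob vehicle, wild type from high to low for Igf1, Igfbp3, Igfbp4 and Igfbp7. It was ob/ob vehicle, VE, wild type for Igf2r and Igfbp5, and VE, wild type, ob/ob vehicle for Igfbp6. For Igf1r and Igfbp2 it was wild type, ob/ob vehicle, VE. Of the neighbours in these orders, only VE and wild type differed for Igf2r and wild type and ob/ob vehicle for Igf1r. By limma's moderated F test over the 3 groups, Igf1r (adjusted p = 0.00267), Igf2r (0.00289) and Igfbp2 (0.0191) passed, where 15.7% of all clusters did, and the other 6 had adjusted p from 0.211 to 0.655.

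The rest of the pathway was read from a list of 34 genes, of which 31 were measured. Between ob/ob vehicle and wild type 2 were higher, 2 lower and 27 did not pass, with a median of −0.04. Between VE and ob/ob vehicle 0 passed in limma, and 1, Igf2, had an unadjusted p under 0.05. Between VE and wild type 4 were higher, 2 lower and 25 did not pass. Shares of 4 and 6 in 31 lie near or below those of all clusters, 14.1% and 20.0%.

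Of 6 genes listed for IGFBP cleavage, not all of them proteases, 2 passed between ob/ob vehicle and wild type, where 14.1% of all clusters did. Between VE and wild type 3 passed, where 20.0% of all clusters did. Adam12, a membrane protease reported to cut binding proteins, read 9.35, 8.81 and 8.03 in VE fat, 8.56, 9.01 and 9.01 in ob/ob vehicle fat, and 5.78, 4.96 and 7.03 in wild type fat. Both ob/ob groups lay above wild type without overlap. It was higher by 2.94 ± 0.50 in ob/ob vehicle (log2, SE, n = 3 each; adjusted p = 0.00363 by limma) and by 2.81 ± 0.50 in VE. Both calls held under all 21 alternatives, with 1.83 and 1.70 against wild type array 3 alone (adjusted p = 0.0341 and 0.0395 by limma).

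Pappa encodes PAPP-A, the protease that frees IGF from IGFBP4. It read 5.52, 4.76 and 3.84 in VE fat, 4.44, 4.07 and 4.50 in ob/ob vehicle fat, and 7.13, 7.37 and 5.56 in wild type fat. All ob/ob values and that of wild type array 3 lay under the array median. Pappa fell, with differences of −2.35 ± 0.52 in ob/ob vehicle (adjusted p = 0.0134 by limma) and −1.98 ± 0.52 in VE (adjusted p = 0.0234). The calls ended under 3 and 7 of 21 alternatives. Its wild type signal was highest on the 2 arrays rich in smooth muscle and epithelial transcripts, and against array 3 alone neither passed (−1.22 and −0.85, adjusted p = 0.197 and 0.35 by limma).

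Htra1, a secreted serine protease that can cut IGFBP5, read 12.96, 12.69 and 12.62 in VE fat, 12.86, 11.99 and 12.62 in ob/ob vehicle fat, and 8.78, 10.24 and 12.31 in wild type fat. It passed between VE and wild type (2.31 ± 0.70, adjusted p = 0.0418 by limma), not between ob/ob vehicle and wild type (2.05, adjusted p = 0.0816). The VE call ended under 12 of 21 alternatives, among them 8 of 9 omissions of a single array, over which the difference ran from 1.48 to 3.25. It also ended against wild type array 3 alone (0.45, adjusted p = 0.502 by limma).

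Igfals encodes the acid-labile subunit, the liver-made partner of IGF and IGFBP3 in blood. It read 10.01, 8.72 and 8.40 in VE fat, 9.90, 8.18 and 9.16 in ob/ob vehicle fat, and 5.81, 6.00 and 8.27 in wild type fat. It was higher by 2.39 ± 0.69 in ob/ob vehicle (adjusted p = 0.0461 by limma) and by 2.35 ± 0.69 in VE (adjusted p = 0.0385). The calls ended under 13 and 10 of 21 alternatives, among them the replicate number as a block for ob/ob vehicle (adjusted p = 0.0528 by limma), and against wild type array 3 alone the differences were 0.81 and 0.77. Transcripts of hepatocytes were uneven in these samples, with list medians of 10.73 to 14.40 on the ob/ob arrays and 11.56, 5.99 and 14.66 on wild type arrays 1, 2 and 3.

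Among the signalling genes, Pik3r1 read 14.88, 13.86 and 14.93 in VE fat and 13.62, 14.32 and 15.29 in ob/ob vehicle fat. In wild type fat it read 15.04, 16.01 and 16.95. The group means were 14.56, 14.41 and 16.00. Its difference of −1.59 for ob/ob vehicle was the lowest of the 13 measured signalling genes and did not pass. All VE values lay below all wild type values, where 37.2% of all clusters did not overlap, and that difference did not pass either. Irs1, the adaptor that couples the IGF1 and insulin receptors to their kinases, was the only signalling gene called lower. It read 6.54, 6.26 and 7.01 in VE fat, 7.14, 7.09 and 6.46 in ob/ob vehicle fat, and 7.94, 7.95 and 9.29 in wild type fat, with no overlap between ob/ob and wild type. Its differences were −1.50 ± 0.39 in ob/ob vehicle (adjusted p = 0.0303 by limma) and −1.79 ± 0.39 in VE (adjusted p = 0.0111). The calls ended under 5 and 1 of 21 alternatives and held against wild type array 3 alone (−2.39 and −2.69, adjusted p = 0.00421 and 0.0021 by limma). The ob/ob vehicle call ended without any 1 of the ob/ob vehicle arrays, at adjusted p of 0.0573, 0.0717 and 0.108 by limma. Akt1, a kinase downstream, was higher in VE than in wild type by 0.87 ± 0.23 (adjusted p = 0.0263 by limma). That call ended under 7 of 21 alternatives: 4 of 9 omissions of a single array (0.80 to 1.02 over all 9), array weights (adjusted p = 0.0579 by limma), wild type array 3 alone (1.01, adjusted p = 0.0756) and quantile normalization (0.44, adjusted p = 0.269).

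The second ligand gene, Igf2, read 7.60, 6.57 and 6.70 in VE fat, 7.64, 8.01 and 7.65 in ob/ob vehicle fat, and 7.68, 7.66 and 8.55 in wild type fat. All VE values lay below all others. The difference between VE and ob/ob vehicle was −0.81 ± 0.34 (adjusted p = 1.00 by limma) and that between VE and wild type −1.01 ± 0.34 (adjusted p = 0.0652), and neither passed. The difference from wild type passed against wild type array 3 alone (−1.59, adjusted p = 0.0339 by limma).

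Insr encodes the insulin receptor, the closest relative of the IGF1 receptor. It averaged 12.98 in VE, 12.71 in ob/ob vehicle and 13.18 in wild type, with differences of −0.47 ± 0.39 for ob/ob vehicle (adjusted p = 0.492 by limma) and −0.21 ± 0.39 for VE against wild type. Against wild type array 3 alone it was lower in ob/ob vehicle (−1.29, adjusted p = 0.0498 by limma) and at −1.02 in VE (adjusted p = 0.0943). The difference between the 2 receptor genes was not tested. Igfbp1, a binding protein that insulin represses in liver and a neighbour of Igfbp3 on chromosome 11, was at 4.22 to 5.17 on the ob/ob arrays and 5.09 to 6.14 in wild type (−0.90 ± 0.34 for ob/ob vehicle and −0.94 ± 0.34 for VE, adjusted p = 0.112 and 0.0775 by limma). Against wild type array 3 alone both passed (−1.45 and −1.50, adjusted p = 0.0495 and 0.0378 by limma). It was under the array median on all arrays.

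The growth hormone receptor gene Ghr differed by 0.70 ± 0.40 between ob/ob vehicle and wild type (adjusted p = 0.288 by limma), and by 1.23 against wild type arrays 1 and 2 (adjusted p = 0.00701), and by −0.35 against array 3 alone. Wild type array 3 read 18.40, above all 6 ob/ob arrays. Socs2, a growth hormone target and feedback inhibitor, averaged 7.98 in VE, 7.96 in ob/ob vehicle and 7.99 in wild type, with an interval of −0.66 to 0.61 between ob/ob vehicle and wild type. In all, 0 of 6 measured genes of the growth hormone group passed in any comparison. Of all clusters, 14.1% passed between ob/ob vehicle and wild type, 0.0255% between VE and ob/ob vehicle and 20.0% between VE and wild type. In a group this small the count itself says little.

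**Figure D5:**
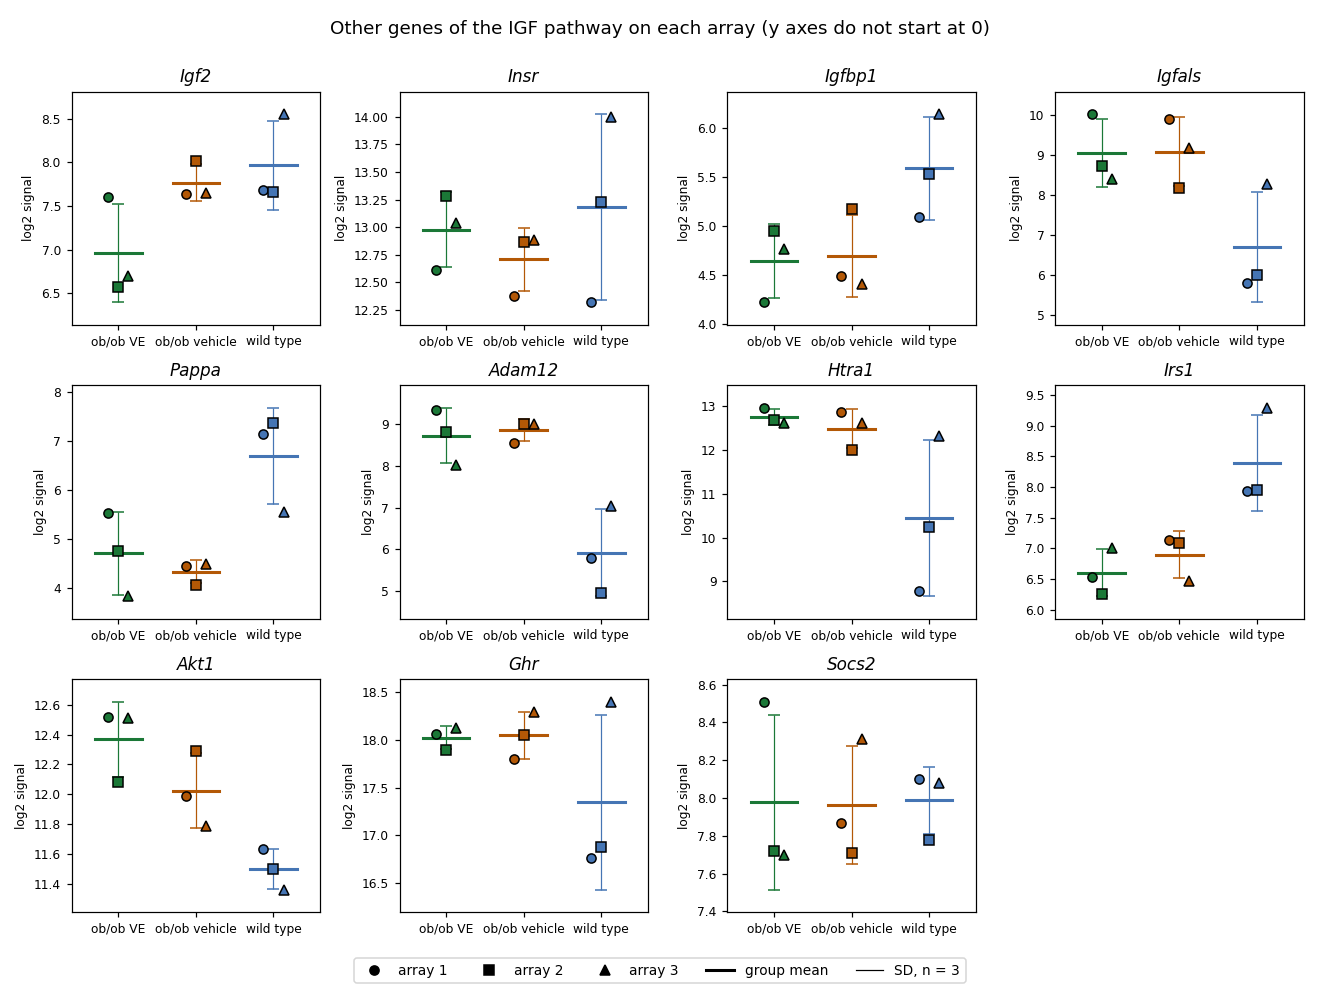
Log2 signal (y axes, each with its own range) of 11 other genes of the pathway on each array, with ob/ob VE, ob/ob vehicle and wild type from left to right; bars are group means with SD (n = 3) and symbols mark the array number. Adam12, Pappa, Irs1 and Akt1 separate both ob/ob groups from wild type, and for Htra1, Igfals and Ghr wild type arrays 1 and 2 lie below array 3. Of all clusters, 28.9% did not overlap between ob/ob vehicle and wild type, and 37.2% between VE and wild type.

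Genes with the most similar pattern were found by the root mean square difference of values centred on each gene's mean over the 9 arrays, among 18533 genes. For Igf1r these were Rbbp7 (0.147), Hoxb9 (0.247), Bmp7 (0.267), Ptpn13 (0.276) and Svil (0.281), where the median gene stood at 1.10. Hoxb9 averaged 2.63 in VE, 2.71 in ob/ob vehicle and 4.86 in wild type, and Bmp7 3.84, 3.80 and 5.59. Both were under the array medians in every group. Rbbp7, a histone-binding protein, averaged 13.03 in VE, 13.03 in ob/ob vehicle and 15.18 in wild type. For Igf2r they were Naip6 (0.293), Specc1 (0.321), Deptor (0.335), Frrs1 (0.336) and Prcp (0.351), against a median of 1.42. Prcp, a lysosomal carboxypeptidase, averaged 11.06 in VE, 10.94 in ob/ob vehicle and 8.58 in wild type, and Deptor, an inhibitor of the kinase mTOR, 10.50, 10.35 and 7.74 in the same groups. For Igf1 they were Lyz1 (0.223), Ldlrad4 (0.232), Gstz1 (0.234), Cd302 (0.234) and Ifi204 (0.237), against a median of 0.90. Ldlrad4 also averaged under the array medians in every group. Lyz1 and Naip6 have near-identical relatives whose signal an array may not separate. All of these values come from the same 9 arrays, and Igf1r and Igf2r split ob/ob from wild type while Igf1 does not, so likeness is a description only.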

How the data were processed

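Transcript levels in white adipose tissue were measured on 9 Clariom S mouse arrays, 1 per sample. Per the design text, the authors normalized them by SST-RMA in Transcriptome Analysis Console (version 4 per the submitters' processing notes). Deposited values are log2 signals, 1 for each of 22206 transcript clusters on an array; 2634 that the platform annotation leaves unnamed were not tested. Detection calls, scanner files and batches were not used here. The genome build is not given in the sources used here. Precision is set by how many arrays there are.

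A model of the 3 group means over all 9 arrays was run in R 4.3.3 with limma 3.58.1, two-sided, with empirical Bayes and Benjamini-Hochberg adjustment over 19572 clusters within each comparison; a call is an adjusted p under 0.05, SE is that of the fit and SD that of 3 arrays. Per the design text each array is a mouse, and p-values measure the spread between these samples. The genes, lists and alternatives were chosen with earlier results of these data known. Genes named were the 9, 7 set pathway genes, every list gene called and the 5 most alike for Igf1 and the 2 members of smallest F test p. Marker lists covered adipocytes, macrophages, stromal progenitors, endothelium, smooth muscle and pericytes, mesothelium, epithelium, epididymis and hepatocytes; their median differences for ob/ob vehicle minus wild type were 0.41 (adipocytes), 0.50 (stromal progenitors), 0.27 (endothelium), −2.23 (smooth muscle and pericytes), 0.22 (mesothelium), −4.40 (epithelium), −0.40 (epididymis) and 1.32 (hepatocytes). The fit was tested on simulated data with 50 clusters changed at each size. For ob/ob vehicle minus wild type it recovered 0 of 50 at 1.5-fold and 6 at 2-fold. At 4-fold it recovered 35 and at 16-fold 47, so most 2-fold changes were missed there. Replicate numbers did not pair arrays: deviations of same-numbered arrays correlated at −0.064 to 0.181. Alternatives were a fit of the groups compared only, the replicate block, quantile normalization, median centring, array weights, a trended prior, no empirical Bayes, all clusters, the dimmest 30% left out, the submitters' threshold (unadjusted p under 0.05 and fold over 1.1), an adjusted p under 0.1, each array left out, and wild type arrays 1 and 2 left out. Promoter sequences are RefSeq's, GRCm38.p6; all 9 genes matched by symbol.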

Additional observations from a re-analysis of the deposited data

How the results depend on the processing

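There were 21 alternatives, or 20 between VE and ob/ob vehicle. The calls of Igf1r and Igf2r against wild type and of Igfbp2 between VE and wild type held each time. The looser thresholds among the alternatives could not end a call. Of 558 values of the 9 genes, 521 kept direction and side of the threshold, 12 newly passed and 25 changed sign, none of them a called value. With the replicate block, the counts of the 9 genes were the same as without it. They were 2 (ob/ob vehicle with wild type), 0 (VE with ob/ob vehicle) and 3 (VE with wild type). Of the pathway list 4, 0 and 7 passed in these comparisons. Igfals lost its call in the first. In the first and in the third, a pathway gene without a call in the main fit newly passed. Pathway genes called were 2 (ob/ob vehicle) and 3 (VE against wild type) when only the groups compared were fitted, 1 and 2 without empirical Bayes, and 8 and 11 of 31 at an adjusted p under 0.1, where 20.2% and 28.2% of all clusters passed. At the submitters' threshold 4 and 5 of the 9 genes and 11 and 14 of 31 pathway genes passed, where 28.4% and 33.9% of all clusters did, and 1 between VE and ob/ob vehicle. Leaving out each array in turn gave 2 to 4 of the 9 genes and 1 to 9 pathway genes for ob/ob vehicle against wild type, 3 to 6 and 2 to 12 for VE against wild type, and 0 in both between VE and ob/ob vehicle; the highest counts came without wild type array 3. Over all clusters these ranges were 1641 to 3545, 2314 to 4706 and 0 to 21; 893 clusters passed the submitters' threshold between VE and ob/ob vehicle.

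Signs turned in comparisons that were not called for the gene. Without wild type arrays 1 and 2 the differences were −0.36 for Igf1, −0.57 for Igfbp4, −0.78 for Igfbp7 and −0.35 for Ghr in ob/ob vehicle, and −0.0467 for Igf1, −0.29 for Igfbp4, −0.12 for Igfbp5, −0.65 for Igfbp6 and −0.38 for Ghr in VE. Quantile normalization gave −0.0113 for Igfbp4 (ob/ob vehicle minus wild type), −0.12 for Igfbp6 (VE minus wild type), and −0.085 for Igfbp3, 0.0722 for Igfbp1 and −0.0778 for Socs2 (VE minus ob/ob vehicle). Array weights gave −0.0421 for Igfbp3 and 0.15 for Igfals between VE and ob/ob vehicle, and median centring 0.0667 and 0.0967 for Socs2 against wild type. With each array left out, ob/ob vehicle minus wild type ranged from −0.0333 to 0.78 for Igfbp4, −0.97 to 0.0583 for Igfbp6, −0.21 to 0.81 for Igfbp7, −0.35 to 0.10 for Igf2 and −0.20 to 0.10 for Socs2. VE minus wild type ranged from −0.04 to 0.73 for Igfbp6, −0.64 to 0.20 for Insr and −0.28 to 0.13 for Socs2. VE minus ob/ob vehicle ranged from −0.345 to 0.035 for Igf1r, −0.73 to 0.16 for Igf2r, −0.19 to 0.17 for Igfbp3, −0.0367 to 0.49 for Igfbp4, −0.685 to 0.02 for Igfbp5, −0.44 to 0.22 for Adam12, −0.15 to 0.10 for Ghr, −0.52 to 0.37 for Igfals, −0.20 to 0.19 for Igfbp1, −0.0367 to 0.80 for Pappa and −0.25 to 0.19 for Socs2. The cause of these changes was not tested.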
